A study of Mus musculus with 6 samples.

Results

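Mitosis and spindle checkpoint genes were followed in cortical cells cultured from newborn WT and Fmr1-KO mice. The set held 57 genes, chosen by name for their roles in entry into mitosis, the spindle checkpoint, the kinetochore, chromosome condensation, the spindle and cytokinesis, with the Kif-named kinesin motor genes left out. They were chosen with earlier results of these data known. All 57 were among the 55367 named rows of the count table and among the 16976 genes with enough counts to be tested. The cells came from the cerebral cortex of C57BL/6J pups at postnatal day 1 (P1) and were kept for 2 days in vitro. There were 3 libraries from wild-type mice (WT) and 3 libraries from mice in which Fmr1 is knocked out (Fmr1-KO), the standard mouse model of fragile X syndrome, in which the RNA-binding protein FMRP is missing. No other allele and no drug treatment is named for either group, and the construction of the Fmr1 allele is not given in the sources used here. Both groups had been depleted of astrocytes carrying the ACSA2 surface antigen and of myelin before plating, according to the study's methods. The labels do not say whether the 3 libraries of a genotype came from separate animals, litters or cultures. The study calls these triplicate samples independently derived, without saying at which of those levels. The P values below thus measure the spread between these libraries, which may not be that between animals.

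Mitosis is driven by cyclin-dependent kinase 1 bound to A- and B-type cyclins, and ends when the anaphase-promoting complex marks cyclin B and securin for destruction. The spindle checkpoint holds that complex back until every kinetochore, the protein platform on the centromere, is attached to microtubules. Most of the mRNAs involved are made only in cycling cells, in a wave at the end of the cell cycle. Postmitotic neurons make little of them, so in a cortical culture they come mainly from dividing progenitors and glia.

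All 57 genes had higher mRNA levels in Fmr1-KO relative to WT. Each passed edgeR's quasi-likelihood test at a Benjamini-Hochberg adjusted P under 0.05, with 0 lower, against 20.7% of all tested genes called higher and 21.9% called lower. The median log2 fold change of the 57 was 0.67, a 1.59-fold difference, compared with 0.006 over all tested genes. The changes ran from 0.17 for the checkpoint protein gene Bub3 to 1.10 for the kinetochore scaffold gene Knl1, and the middle 50% lay between 0.54 and 0.77. In all 57 genes the lowest Fmr1-KO library lay above the highest WT library, an arrangement found in 25.4% of tested genes. When the test required a change beyond 1.2-fold, 51 of the 57 still passed, against 5.20% of tested genes. The 6 that no longer passed were Bub3, Mad2l1, Cdc20, Pttg1, Ckap2 and Cit.

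Levels are given in CPM, the counts of a gene relative to all counts of its library, scaled by edgeR's TMM factors. Summed over the 57 genes, WT replicates 1, 2 and 3 held 1875, 1877 and 1786 CPM, and Fmr1-KO replicates 1, 2 and 3 held 2880, 2985 and 2884 CPM. The Fmr1-KO libraries lay close to each other and well above the WT libraries. The means were 1846 ± 52.0 CPM in WT and 2916 ± 59.4 CPM in Fmr1-KO (SD, n = 3 each), a ratio of 1.58. These transcripts are a small part of the RNA: they took 0.177% to 0.186% of all counts in WT and 0.291% to 0.301% in Fmr1-KO. In RNA from a whole culture, more dividing cells and more of these mRNAs in each dividing cell cannot be told apart.

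**Figure D1:**
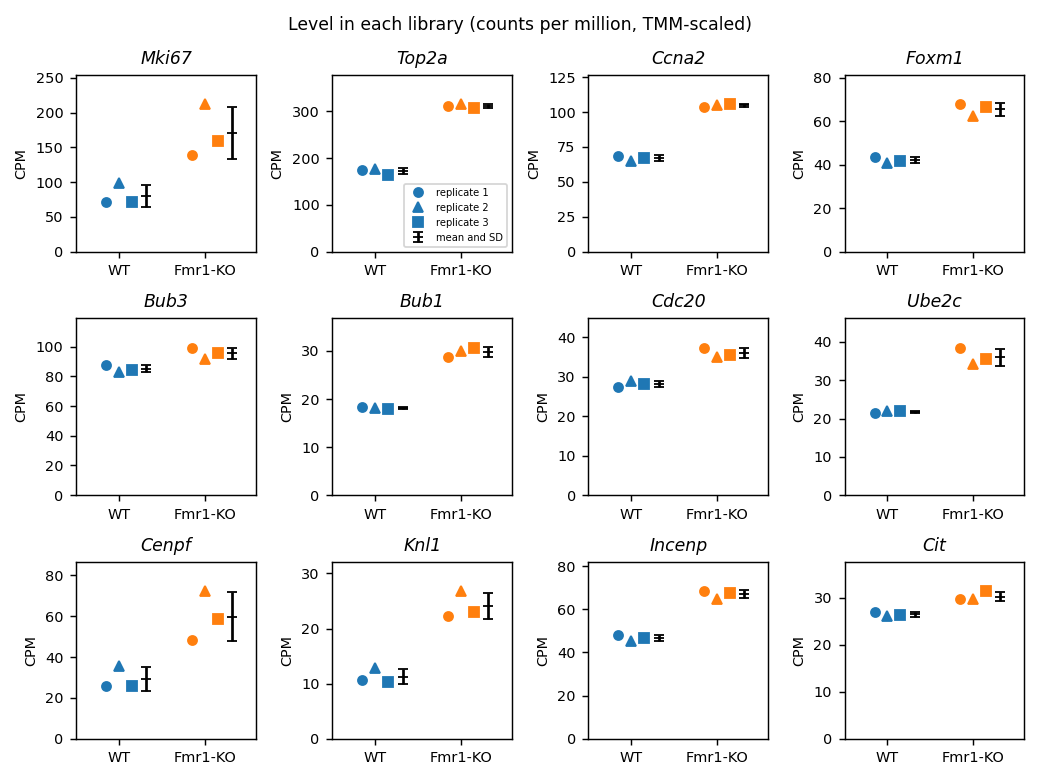
Level of 12 of the genes in each library, in TMM-scaled CPM on axes that start at 0, with replicates 1, 2 and 3 as circles, triangles and squares and the mean with its SD in black. Every Fmr1-KO point lies above every WT point, by a small margin in Bub3 and Cit and by a large one in Top2a. Replicate 2 is the highest of both genotypes in Mki67, Cenpf and Knl1, and by a small margin in Top2a.

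The 6 libraries held 30348556 to 35126207 counts, the deepest 1.16 times the shallowest, and replicates differed by more than counting noise, since their chi-square divided by its degrees of freedom was 2.91 for WT and 3.15 for Fmr1-KO. Fmr1 itself (chrX:68678541-68717963, plus strand, GRCm38) had 4113, 3710 and 3656 counts in WT and 1761, 1879 and 1972 in Fmr1-KO, which edgeR put at -0.98 (SE 0.04, adjusted P 2.25e-13) on the log2 scale. Fmr1 RNA thus remained in the Fmr1-KO libraries, at 0.506 times the WT level, and the counts do not measure the protein. The neuron label was checked against markers. All 8 neuron genes were present and summed to 4493 to 4600 CPM in WT and 3923 to 4114 CPM in Fmr1-KO, but the astrocyte gene Gfap was also well detected at 2609, 2726 and 2611 CPM in WT and 2185, 2228 and 2478 CPM in Fmr1-KO, and the 7 oligodendrocyte-lineage genes summed to 1882 to 2043 CPM and 1073 to 1158 CPM. The cultures therefore held RNA of several cell types.

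Several of these cell types can divide, so their markers are given beside the mitosis genes, to be read against the 20.7% of all tested genes called higher and the 21.9% called lower. The 4 tested intermediate-progenitor genes (of 5 listed) were all higher in Fmr1-KO, with a summed level of 101 to 117 CPM in WT and 225 to 252 CPM in Fmr1-KO. Eomes, the transcription factor that marks these progenitors of excitatory neurons, had 9.12, 13.1 and 9.29 CPM in WT and 74.0, 80.0 and 64.4 CPM in Fmr1-KO, with a log2 fold change of 2.79 (SE 0.09, adjusted P 2.35e-15). All 3 Fmr1-KO libraries lay far above the WT libraries, and Neurog1, the gene on that list left untested, was at or near 0 throughout. Of the 9 radial-glia and stem-cell genes, 3 were higher and 1 lower, near those background shares, and they summed to 3700 to 3778 CPM in WT and 3985 to 4040 CPM in Fmr1-KO. Pax6, Nes and Vim were higher by 0.52, 0.28 and 0.22 on the log2 scale, and Glul was lower, at -0.12. Sox2, Fabp7, Slc1a3, Hes1 and Hes5 were not called, with log2 fold changes of 0.02, -0.01, 0.03, 0.20 and -0.12. Of the 5 interneuron-progenitor genes, 4 were higher, summing to 437 to 450.1 CPM in WT and 566 to 621 CPM in Fmr1-KO.

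The remaining marker lists are short, and their calls are to be read against the same background shares (20.7% higher and 21.9% lower). All 7 oligodendrocyte-lineage genes were lower in Fmr1-KO, as were 5 of 6 microglia genes (119.6 to 134 CPM summed in WT, 76.0 to 83.3 CPM in Fmr1-KO), 4 of 5 fibroblast genes (400.2 to 447 CPM, 359 to 399 CPM) and both tested erythroid genes, which were near 0. Astrocyte genes were mixed, with 3 of 6 lower and 2 higher (3716 to 3860 CPM, 3126 to 3493 CPM), as were neuron genes, with 6 of 8 lower and 2 higher, and endothelial and mural genes, with 3 of 5 tested higher and 1 lower (75.5 to 82.9 CPM, 93.0 to 99.6 CPM). Sex-linked genes differed too: Xist, expressed from the inactive X chromosome of females, had 312, 307 and 298 CPM in WT and 825, 1017 and 905 CPM in Fmr1-KO. Of the 4 Y-linked genes, 3 were lower in Fmr1-KO, by up to 0.47 on the log2 scale for Eif2s3y. The part that any of these differences had in the mitosis result was not tested.

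The promoters of genes in this set are known for a short element near the start of transcription, the cell-cycle genes homology region (CHR), often preceded by CCAAT boxes. The sequences below are RefSeq promoter windows on GRCm38.p6, from 250 bases before the start to 50 after it, written 5′ to 3′ along the gene's strand. Capitals mark the CHR letters TTTGAA or TTCGAA and the CCAAT box, on either strand (TTCAAA and ATTGG are their reverse complements). They are shown for Bub1 and Bub3, the checkpoint genes with the largest and smallest change, for Cdc20 and Ube2c, which act on the anaphase-promoting complex, for the kinetochore gene Cenpf, and for Top2a, the gene with the highest mean CPM of the 57. Bub3 has 2 starts in RefSeq, and the window of the upstream one is shown. Its gene start in the GENCODE M21 annotation lies further upstream, inside that window. All positions given here are counted from the RefSeq start.
Bub1, chr2:127831810-127832109 (minus strand): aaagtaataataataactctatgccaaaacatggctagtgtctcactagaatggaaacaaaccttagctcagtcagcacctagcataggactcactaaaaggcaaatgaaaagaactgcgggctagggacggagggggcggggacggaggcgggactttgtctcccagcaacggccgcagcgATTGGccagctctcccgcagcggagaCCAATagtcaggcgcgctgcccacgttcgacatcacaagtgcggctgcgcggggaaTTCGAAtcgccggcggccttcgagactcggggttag
Bub3, chr7:131560120-131560419 (plus strand): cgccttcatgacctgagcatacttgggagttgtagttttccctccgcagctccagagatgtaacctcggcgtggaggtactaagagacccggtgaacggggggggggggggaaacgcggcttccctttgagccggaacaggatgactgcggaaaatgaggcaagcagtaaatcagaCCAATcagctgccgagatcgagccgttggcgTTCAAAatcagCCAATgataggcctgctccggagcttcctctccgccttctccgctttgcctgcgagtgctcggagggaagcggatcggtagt
Cdc20, chr4:118437294-118437593 (minus strand): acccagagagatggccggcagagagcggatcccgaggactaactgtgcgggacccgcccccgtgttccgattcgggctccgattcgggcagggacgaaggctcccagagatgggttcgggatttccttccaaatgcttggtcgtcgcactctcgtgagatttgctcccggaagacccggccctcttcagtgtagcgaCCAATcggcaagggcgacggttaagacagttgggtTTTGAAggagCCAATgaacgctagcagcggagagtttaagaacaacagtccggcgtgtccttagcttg
Ube2c, chr2:164769679-164769978 (plus strand): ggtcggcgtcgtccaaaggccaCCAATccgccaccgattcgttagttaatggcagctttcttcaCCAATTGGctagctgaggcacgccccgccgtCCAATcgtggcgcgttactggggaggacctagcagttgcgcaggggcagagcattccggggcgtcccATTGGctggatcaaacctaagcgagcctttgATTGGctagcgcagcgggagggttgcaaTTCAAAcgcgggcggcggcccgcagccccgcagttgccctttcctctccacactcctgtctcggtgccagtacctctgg
Cenpf, chr1:189688037-189688336 (minus strand): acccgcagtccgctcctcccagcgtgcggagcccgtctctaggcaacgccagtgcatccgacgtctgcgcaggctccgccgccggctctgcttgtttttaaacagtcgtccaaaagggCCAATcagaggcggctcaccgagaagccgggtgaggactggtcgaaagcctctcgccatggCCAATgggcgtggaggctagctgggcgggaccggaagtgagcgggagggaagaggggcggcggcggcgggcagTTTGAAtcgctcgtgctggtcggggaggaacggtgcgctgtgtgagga
Top2a, chr11:99024140-99024439 (minus strand): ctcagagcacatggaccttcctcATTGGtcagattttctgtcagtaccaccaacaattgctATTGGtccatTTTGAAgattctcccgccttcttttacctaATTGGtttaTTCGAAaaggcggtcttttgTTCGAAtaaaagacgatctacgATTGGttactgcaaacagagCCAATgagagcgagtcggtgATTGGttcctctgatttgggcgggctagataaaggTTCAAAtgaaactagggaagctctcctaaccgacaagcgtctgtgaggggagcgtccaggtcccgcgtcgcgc

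In these windows the single CHR match began 14 bases after the start in Bub1 and 2 bases after it in Cenpf. It began 43 bases before the start in Bub3, 18 before it in Cdc20 and 29 before it in Ube2c. Bub1, Bub3, Cdc20 and Cenpf each held 2 CCAAT matches and Ube2c held 6, of which one pair overlaps. Top2a held 6 CCAAT matches and 4 CHR matches, the densest of the 6 windows shown. Only windows with a CHR match and at least 2 CCAAT matches were considered for printing, so all 6 carry both kinds by choice. Bub3, with a change of 0.17, was among them, as was Bub1, with a change of 0.71. Other members lacked a match: Knl1, with the largest change of the set, had no CCAAT match, and Pttg1 had neither kind.

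Of the 57 genes, 49 had a RefSeq promoter entry, with 55 windows in all because some genes have more than 1 start, and windows of neighbouring starts overlap. The 8 without an entry were Aurkb, Ccna2, Cdc25c, Foxm1, Incenp, Smc4, Spc24 and Tpx2. The CHR letters were in 35 of the 55 windows (63.6%), compared with 13.9% of the 15824 windows of tested genes and 19.2% of all 32851 windows. CCAAT was in 42 windows (76.4%), compared with 37.4% of the windows of tested genes and 37.4% of all windows, and both together in 32 (58.2%), compared with 5.59% and 7.52%. The E2F-like letters TTTGGCGC, TTTCGCGC or TTTCCCGC, searched on both strands, were in 3 windows (5.45%, compared with 3.08% and 1.84%). Base composition was close, with a median GC content of 58.7% in the windows of the set and 60.3% in those of tested genes.

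The matches also lay in preferred places. The CHR letters began in the first 50 bases after the start in 40.0% of the windows of the set and in the last 50 bases before it in 18.2%, compared with 1.66% and 1.94% of the windows of tested genes. CCAAT began in the last 50 bases before the start in 41.8% and in the 50 bases before those in 36.4%, compared with 10.3% and 14.5%. Within the set, the 32 genes with CHR letters had a median log2 fold change of 0.68 and the 17 without them 0.59, and the ranges overlapped over nearly their whole length (0.17 to 1.10 and 0.19 to 1.08). A match is only a run of letters in this window and says nothing on whether a factor binds there.

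**Figure D2:**
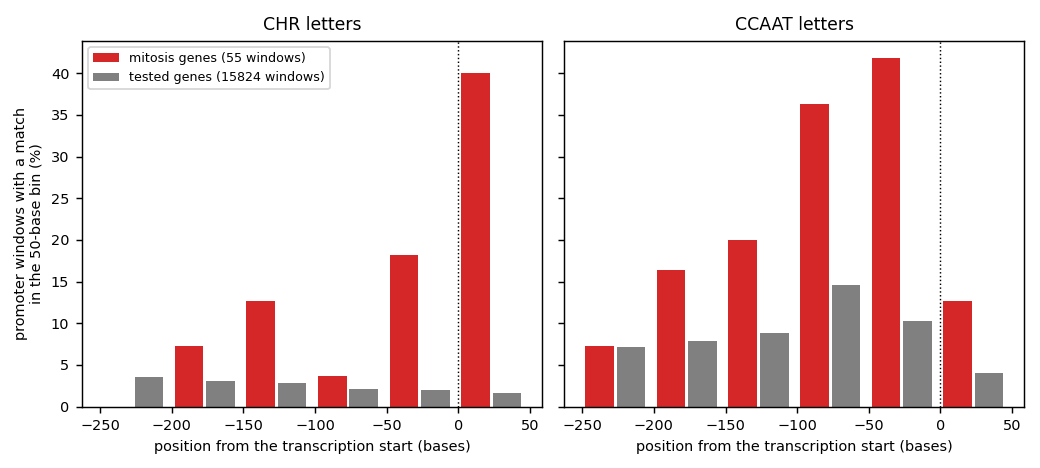
Share of promoter windows (vertical axis, percent) with CHR letters (left) or CCAAT letters (right) beginning in each 50-base bin, by distance in bases from the transcription start, for the 55 windows of the mitosis genes (red) and the 15824 windows of all tested genes (grey). In the mitosis genes CHR letters peak in the 50 bases after the start (40.0% compared with 1.66%) and CCAAT letters in the 100 bases before it.

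The 11 kinases, phosphatases and cyclins of mitotic entry were all higher in Fmr1-KO, with a median log2 fold change of 0.58. Ccna2 (chr3:36564865-36572150, minus strand, GENCODE M21), which encodes cyclin A2 and had the highest CPM of them, had 68.8, 64.8 and 67.1 CPM in WT replicates 1, 2 and 3 and 104, 105 and 106 CPM in the Fmr1-KO replicates. The 3 libraries of each genotype were nearly level, and the genotypes were far apart. By edgeR it rose by 0.65 (SE 0.04, adjusted P 5.24e-12) on the log2 scale, a 1.57-fold difference with a 95% interval of 1.49 to 1.65. Melk, a kinase gene strongly tied to proliferating progenitors, changed most in this group, from 17.6, 15.2 and 15.8 CPM to 26.9, 28.0 and 28.2 CPM, a log2 fold change of 0.77 (SE 0.06, adjusted P 1.45e-09). Plk1, the kinase that drives centrosome maturation and spindle formation, changed least, from 21.7, 21.99 and 21.4 CPM to 32.4, 28.7 and 29.8 CPM, or 0.48 (SE 0.06, adjusted P 3.63e-07). Even in Plk1 the lowest Fmr1-KO library, replicate 2, was clear of the highest WT library. The catalytic subunit gene Cdk1 rose by 0.68 and its partners Ccnb1 and Ccnb2 by 0.59 and 0.54. The phosphatase genes Cdc25b and Cdc25c, whose products activate Cdk1, rose by 0.57 and 0.50, and the centrosomal kinase genes Plk4, Aurka and Nek2 by 0.49, 0.58 and 0.73.

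Both transcription factor genes of the set, which drive expression of the mitotic genes in G2, moved by about the median. Foxm1 (chr6:128362967-128376146, plus strand) had 43.7, 41.0 and 42.0 CPM in WT and 68.0, 62.3 and 66.5 CPM in Fmr1-KO, which edgeR put at 0.64 (SE 0.04, adjusted P 1.43e-10) on the log2 scale. Mybl2, which encodes B-Myb, the Myb protein of the complex that binds CHR elements, had 12.7, 11.0 and 12.9 CPM in WT and 19.3, 18.7 and 21.4 CPM in Fmr1-KO, or 0.70 (SE 0.07, adjusted P 1.10e-07). Mybl2 had the lower CPM of the pair, and the genotypes did not overlap in either gene.

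The 5 spindle checkpoint genes rose by very different amounts. Bub1 (chr2:127801122-127831865, minus strand), the kinase that recruits checkpoint proteins to kinetochores and whose promoter is printed above, had 18.4, 18.2 and 17.9 CPM in WT and 28.7, 29.9 and 30.7 CPM in Fmr1-KO. The WT libraries were almost equal, and Bub1 rose by 0.71 (SE 0.05, adjusted P 7.13e-10) on the log2 scale in the edgeR test. Bub3 (chr7:131560222-131571895, plus strand), the adaptor that carries Bub1 and BubR1 to the kinetochore, had 87.8, 82.9 and 84.4 CPM in WT and 99.3, 91.4 and 95.5 CPM in Fmr1-KO. Fmr1-KO replicate 2 lay only just above WT replicate 1, and the ratio of those libraries, 1.04, was the narrowest gap of the 57 genes. Bub3 rose by 0.17 (SE 0.04, adjusted P 0.00120) on the log2 scale, a 1.12-fold difference with a 95% interval of 1.06 to 1.18. Bub1b, which encodes BubR1, rose by 0.67, the kinase gene Ttk (Mps1) by 0.69 and Mad2l1, which encodes the checkpoint protein that binds Cdc20, by 0.37. With a minimum change of 1.2-fold, Bub3 and Mad2l1 were no longer called by edgeR, with adjusted P values of 1 and 0.0548.

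The 4 genes that act at the onset of anaphase had the lowest median log2 fold change of the role groups, 0.43. Cdc20, the activator of the anaphase-promoting complex that the checkpoint restrains, had 27.4, 28.9 and 28.3 CPM in WT and 37.4, 34.99 and 35.6 CPM in Fmr1-KO, a log2 fold change of 0.35 (SE 0.05, adjusted P 4.57e-06) by edgeR. Ube2c, the ubiquitin-conjugating enzyme that works with the complex, had 21.5, 21.9 and 21.9 CPM in WT and 38.5, 34.2 and 35.4 CPM in Fmr1-KO, or 0.73 (SE 0.05, adjusted P 5.36e-10). These genes function side by side and both carry CHR and CCAAT letters in the promoters printed above, but the 95% intervals of their folds did not overlap (1.19 to 1.37 for Cdc20 and 1.53 to 1.79 for Ube2c). Pttg1, which encodes securin, the inhibitor of separase, had 12.7, 11.6 and 12.9 CPM in WT and 15.2, 16.0 and 15.003 CPM in Fmr1-KO, the smallest change of the 4 at 0.32 (SE 0.07, adjusted P 7.82e-04). Espl1, which encodes separase, the protease that cuts cohesin, rose by 0.50. Cdc20 and Pttg1 did not pass with a minimum change of 1.2-fold (adjusted P values of 0.0796 and 0.403 by edgeR).

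The 11 kinetochore and centromere genes held 3 of the 4 genes of the set that at least doubled. Knl1, the outer kinetochore scaffold on which the checkpoint assembles, had 10.6, 12.8 and 10.3 CPM in WT and 22.4, 26.8 and 23.0 CPM in Fmr1-KO. Replicate 2 was the highest library of both genotypes, and edgeR gave a rise of 1.10 (SE 0.08, adjusted P 7.00e-10) on the log2 scale. Cenpf (chr1:189640606-189688086, minus strand), a large protein of the outer kinetochore that accumulates in G2, had 25.8, 35.8 and 26.1 CPM in WT and 48.6, 72.3 and 58.6 CPM in Fmr1-KO, again with replicate 2 highest in both. Cenpf rose by 1.03 (SE 0.11, adjusted P 1.39e-07) on the log2 scale, and the libraries within a genotype were spread more widely than in most other members. Cenpe, the kinesin-like motor that moves chromosomes to the metaphase plate, rose by 1.08 with the largest SE of the set, 0.13. Nuf2, a subunit of the microtubule-binding Ndc80 complex, changed least, from 24.9, 23.7 and 24.3 CPM to 33.6, 34.7 and 36.1 CPM, or 0.52 (SE 0.05, adjusted P 3.15e-08). The other subunits of that complex rose by 0.77 (Ndc80), 0.82 (Spc24) and 0.88 (Spc25). Cenpa, the histone variant that marks centromeres, rose by 0.58, and the inner kinetochore genes Cenph, Cenpi and Cenpk by 0.70, 0.67 and 0.56.

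The chromosomal passenger complex, which corrects faulty attachments, consists of the products of Aurkb, Incenp, Birc5 and Cdca8, and the shugoshins protect centromeric cohesin. Incenp, its scaffold, had 48.3, 45.4 and 46.8 CPM in WT and 68.5, 65.0 and 67.6 CPM in Fmr1-KO, a log2 fold change of 0.52 (SE 0.04, adjusted P 1.07e-09) by edgeR and the smallest of the 6 genes. Sgo2a, a shugoshin, had 13.6, 13.6 and 12.3 CPM in WT and 22.5, 23.9 and 23.0 CPM in Fmr1-KO, the largest at 0.81 (SE 0.06, adjusted P 9.75e-10). In both genes the libraries of a genotype lay close together. Sgo1 rose by 0.81, the kinase gene Aurkb by 0.70, Cdca8 (borealin) by 0.62 and Birc5 (survivin) by 0.53.

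Condensin and chromosome structure genes had the largest summed CPM of the role groups, with a median change of 0.79 beside 0.77 for the kinetochore genes. Top2a (chr11:98992943-99024189, minus strand), the topoisomerase that untangles sister chromatids and whose promoter is printed above, had 175, 177 and 164 CPM in WT and 311, 316 and 307 CPM in Fmr1-KO. Its mean nearly doubled with little scatter, at 172 ± 6.66 CPM in WT and 311 ± 4.55 CPM in Fmr1-KO (SD, n = 3 each), a 1.81-fold difference with a 95% interval of 1.73 to 1.90. On the log2 scale the rise was 0.86 (SE 0.03, adjusted P 1.85e-14) in the edgeR test. Mki67 (chr7:135689784-135716361, minus strand), which encodes Ki-67, the coat protein of mitotic chromosomes used as the standard marker of cycling cells, had 71.1, 98.1 and 71.1 CPM in WT and 139.6, 212 and 159 CPM in Fmr1-KO. Replicate 2 stood above replicates 1 and 3 in both genotypes, but the lowest Fmr1-KO library was still above the highest WT library. Mki67 rose by 1.09 (SE 0.11, adjusted P 8.39e-08) on the log2 scale. Ncaph, the kleisin subunit of condensin I, changed least, from 29.8, 27.2 and 26.9 CPM to 41.2, 40.8 and 41.4 CPM, or 0.56 (SE 0.05, adjusted P 7.53e-09). The condensin ATPase genes Smc2 and Smc4 rose by 0.79 and 0.79, and the condensin I subunit genes Ncapg and Ncapd2 by 0.84 and 0.56.

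All 6 spindle assembly genes rose, with a median of 0.62. Tpx2, which activates Aurora A on the spindle and had the highest CPM of them, had 69.1, 66.8 and 66.1 CPM in WT and 103, 98.3 and 97.1 CPM in Fmr1-KO, a log2 fold change of 0.56 (SE 0.04, adjusted P 7.90e-11) by edgeR. Aspm, a spindle-pole protein whose loss in humans causes microcephaly, had 32.5, 33.0 and 30.9 CPM in WT and 52.9, 57.7 and 53.5 CPM in Fmr1-KO, the largest change of the 6 at 0.77 (SE 0.05, adjusted P 2.53e-11). Ckap2, a microtubule-binding protein, had 40.8, 41.2 and 41.6 CPM in WT and 51.1, 49.8 and 49.3 CPM in Fmr1-KO, the smallest at 0.28 (SE 0.04, adjusted P 7.26e-06). The libraries of Ckap2 were tightly grouped, so that a 1.22-fold difference was still clear of the spread, although it did not pass with a minimum change of 1.2-fold (adjusted P 0.555). Its relative Ckap2l rose by 0.64, and the microtubule-binding genes Hmmr and Nusap1 by 0.61 and 0.69.

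Among the 5 midzone and cytokinesis genes, Racgap1, a subunit of the centralspindlin complex that positions the cleavage furrow, had the highest CPM. It had 80.9, 73.9 and 78.5 CPM in WT and 113, 106 and 109.8 CPM in Fmr1-KO, a log2 fold change of 0.49 (SE 0.04, adjusted P 1.12e-09) by edgeR. Ect2, the exchange factor that activates RhoA at the furrow, had 26.2, 22.8 and 21.3 CPM in WT and 36.2, 44.7 and 37.8 CPM in Fmr1-KO, the largest of the 5 at 0.75 (SE 0.07, adjusted P 4.18e-08). Fmr1-KO replicate 2 was the highest library of Ect2, without a matching rise in WT replicate 2. Cit, which encodes citron kinase of the midbody, had 26.9, 26.0 and 26.3 CPM in WT and 29.6, 29.6 and 31.4 CPM in Fmr1-KO, and at 0.19 (SE 0.05, adjusted P 0.00353) had the largest adjusted P of the 57. Prc1, which bundles midzone microtubules, rose by 0.73 and Anln (anillin) by 0.68.

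**Figure D3:**
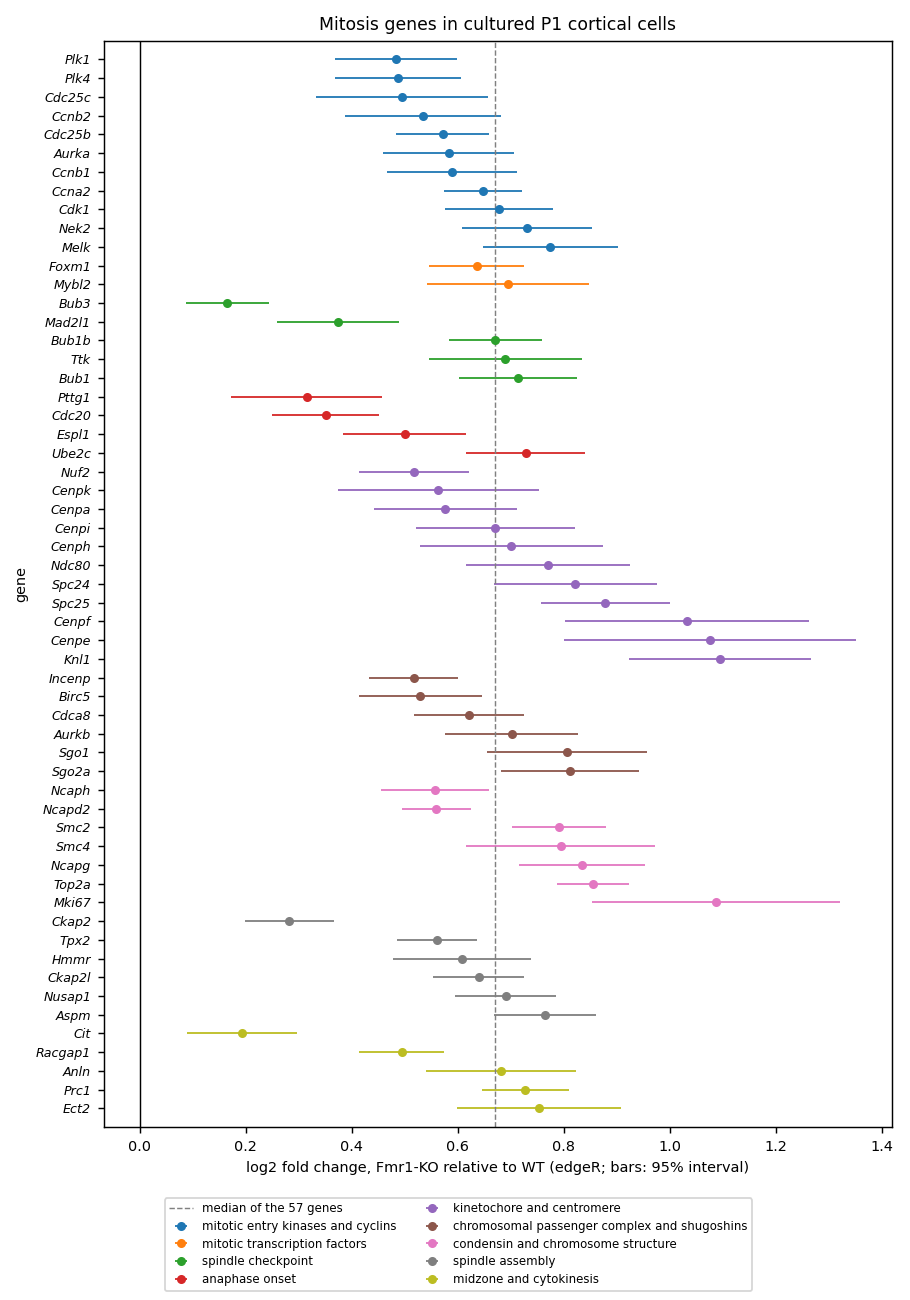
Log2 fold change of each of the 57 genes in Fmr1-KO relative to WT (horizontal axis), with its 95% interval from edgeR, sorted within role groups marked by colour. No interval reaches 0, and the dashed line is the median of 0.67.

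The genes did not all change by the same amount. The 95% interval of the log2 fold change held the median of the set in 30 of the 57 genes. It lay above the median in 9 genes (Cenpe, Cenpf, Spc25, Knl1, Sgo2a, Smc2, Ncapg, Top2a and Mki67), which came from 3 of the 9 role groups: kinetochore and centromere, condensin and chromosome structure, and, for Sgo2a, the passenger complex and shugoshins. It lay below the median in 18 genes, which came from 8 of the 9 role groups. Across the 57 genes the log2 fold change went with lower GC content of the longest transcript (Spearman's rho -0.37, compared with -0.12 over 12017 tested genes). It went weakly with lower WT level per kilobase (rho -0.27), but the WT level is also the divisor of the fold change, so noise alone lowers that rho. Both correlations are descriptions over genes measured in the same 6 libraries. With offsets for GC content in each library, an alternative chosen after the data were seen, all 57 genes were still called higher by edgeR with a median of 0.67. Single genes moved: Ncapg went from 0.84 to 0.71 and Cenpk from 0.56 to 0.49, while Cdc20 went from 0.35 to 0.39 and Espl1 from 0.50 to 0.54. Whether the correlation with GC content remained was not tested.

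Within complexes, levels per kilobase of exon (RPKM) allow genes to be compared. In WT the levels of the 57 ran from 1.08 RPKM for Cenpk to 20.4 RPKM for Ncapd2, with a median of 5.37, and in Fmr1-KO the median was 8.26. In condensin I the WT levels were 8.94 RPKM for Smc2, 11.97 RPKM for Smc4, 20.4 RPKM for Ncapd2, 6.49 RPKM for Ncaph and 2.55 RPKM for Ncapg. In the Ndc80 complex they were 1.64 RPKM for Ndc80, 3.84 RPKM for Nuf2, 3.64 RPKM for Spc24 and 5.31 RPKM for Spc25. Among the proteins of the mitotic checkpoint complex they were 15.1 RPKM for Cdc20, 12.1 RPKM for Bub3, 7.87 RPKM for Bub1b and 3.13 RPKM for Mad2l1. In Fmr1-KO they were 19.3, 13.6, 12.5 and 4.06 RPKM in the same order, so that Bub1b came near Bub3. Exon lengths are those of all annotated exons together, which lowers the RPKM of genes with long alternative ends.

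Other genes of the cell cycle were set beside these. All 12 mitotic kinesin genes were higher in Fmr1-KO, with a median log2 fold change of 0.71, from 0.53 for Kif22 to 0.97 for Kif20b. Of 48 other mitosis genes, 45 were higher and 1 was lower, with a median of 0.54. The one that was lower, Zwint, encodes a kinetochore protein that is also abundant in neurons, and had 336, 325 and 332 CPM in WT and 293, 286 and 295 CPM in Fmr1-KO. Cenpw and Mad1l1, a centromere gene and a checkpoint gene, were not called (log2 fold changes of 0.05 and -0.0014). All 30 DNA replication genes were higher, with a median of 0.58, from 0.38 for Rfc4 to 0.81 for Rrm2, so the difference extended to S-phase genes. By comparison 20.7% of tested genes were higher.

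Of the 15 genes of the anaphase-promoting complex, which also acts in neurons, 5 were higher (20.7% of all tested genes were), with log2 fold changes from -0.01 for Fzr1 to 0.19 for Anapc15, with a median of 0.06. That number was 8 with library totals alone, 2 when WT replicate 1 was left out, 3 when Fmr1-KO replicate 1 was and 0 with a minimum change of 1.2-fold, which 5.20% of all tested genes passed upward. Of the 11 cohesin genes, 10 were higher, with a median of 0.24. The cohesin factors tied to S phase, Esco2 and Cdca5, rose by 0.91 and 0.65, and Pds5b was not called, at 0.06. With a minimum change of 1.2-fold, 2 cohesin genes were called. Of the 6 tested CDK inhibitor genes, Cdkn1b, Cdkn2b and Cdkn2c were higher and Cdkn1a was lower (0.38, 0.69, 0.55 and -0.13). The libraries of Cdkn2b overlapped between genotypes (1.15, 0.726 and 1.80 CPM in WT, 2.09, 1.73 and 2.10 CPM in Fmr1-KO), and 2 CDK inhibitor genes rather than 3 were called higher with DESeq2.

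**Figure D4:**
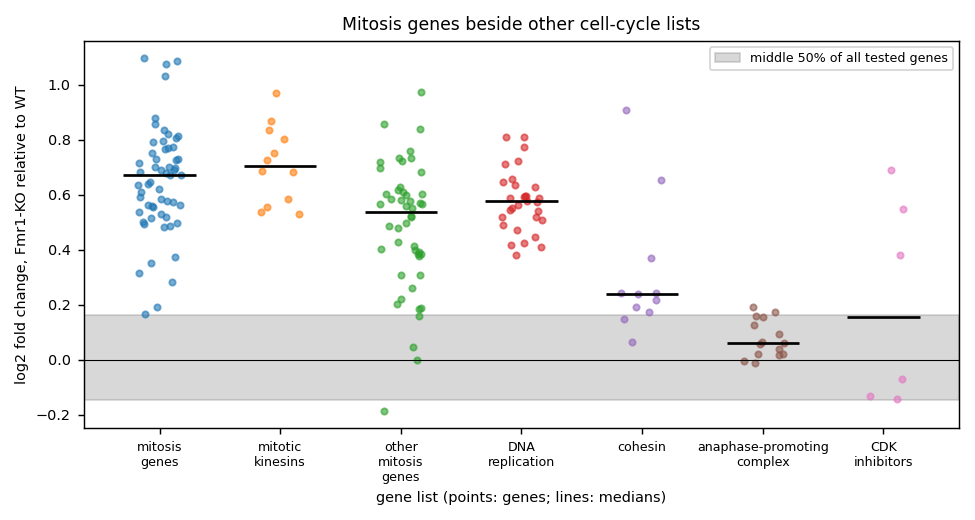
Log2 fold change of each gene in Fmr1-KO relative to WT (vertical axis) in the mitosis set and 6 other cell-cycle lists, with a line at each list's median and the middle 50% of all tested genes shaded. Mitosis, kinesin and replication genes lie above the shaded band, while most genes of the anaphase-promoting complex lie inside it.

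A few of the genes varied between replicates in the same way in both genotypes. Cenpe, Cenpf, Knl1, Smc4 and Mki67 lay more than 0.2 log2 units above the mean of replicates 1 and 3 in replicate 2 of WT and in replicate 2 of Fmr1-KO. These were 5 of the 57 genes (8.77%), compared with 83 of the 12145 tested genes that averaged 5 CPM or more (0.683%). Both the pattern and the limit of 0.2 were chosen after the values were seen. Cenpe, for example, had 12.4, 16.4 and 12.5 CPM in WT and 22.4, 37.7 and 27.0 CPM in Fmr1-KO. Leaving out 1 library of replicate 2 moved these genes in opposite directions: the log2 fold change of Mki67 was 0.90 when Fmr1-KO replicate 2 was dropped and 1.26 when WT replicate 2 was. With both libraries of replicate 2 left out, an alternative chosen after the data were seen, it was 1.07 for Mki67, 1.05 for Cenpf, 0.99 for Cenpe, 1.12 for Knl1 and 0.85 for Smc4. All 57 genes were still called higher by edgeR in that 2 against 2 comparison, with a median of 0.64.

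**Figure D5:**
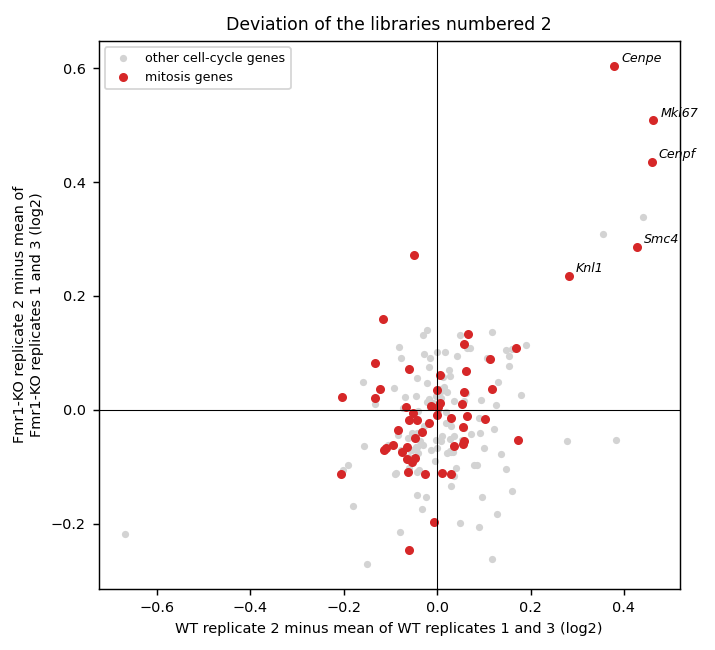
Deviation of replicate 2 from the mean of replicates 1 and 3, in log2 units, in WT (horizontal axis) and Fmr1-KO (vertical axis), for the 57 mitosis genes (red) and the other cell-cycle genes (grey). Cenpe, Mki67, Cenpf, Smc4 and Knl1 stand apart at the upper right, with 2 of the other genes, while most genes lie near 0 on both axes.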

How the data were processed

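RNA was measured in 6 libraries of P1 cortical cells after 2 days in vitro, 3 WT and 3 Fmr1-KO, grouped by the genotype that the labels give. The deposited values are raw counts for each gene name, not normalized, from stranded poly(A) libraries. In the authors' processing, FastP trimmed the single-end reads, STAR (2.7.6a per the labels) placed them on GRCm38.p6 and the reads were counted over exons by gene name with featureCounts in reverse-stranded mode, so isoforms and pre-mRNA are not separated. No row lacked a gene name.

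Genes passing filterByExpr were fitted with edgeR 4.0.16 (R 4.3.3): TMM factors, glmQLFit and glmQLFTest with genotype as the term, 2-sided, and Benjamini-Hochberg adjustment over all 16976 tested genes at a threshold of 0.05. The authors used DESeq2, which was run here as an alternative (version 1.42.0). SE is the size of the log2 fold change over the square root of the F statistic. The common biological coefficient of variation was 3.22%. GENCODE M21 (GRCm38), which is older than the release the authors name, supplied coordinates, exon lengths and GC content, and 98.6% of tested names matched it. Promoter windows came from RefSeq (GRCm38.p6), matched by symbol. Member counts ran from 177 to 10668 per library, and the lowest carry the most counting error.

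The 57 members, the lists beside them and the markers were chosen with earlier results of these data known. In each role group, the genes with the highest mean CPM and with the largest and smallest change are given library by library. Cenpe, also given library by library, and the other genes named with values were chosen after values were seen. Alternatives tried were: DESeq2, other scaling (RLE, upper quartile or library totals alone), the filter dropped or tightened to 10 counts and 5 CPM on average, leaving out each library, a replicate block, a minimum fold change of 1.2, removal of the 20 most abundant genes, TMM factors without cell-cycle genes, and, added after the data were seen, GC offsets and removal of both libraries of replicate 2. The labels do not pair same-numbered libraries, and over all tested genes their deviations from the genotype means had correlations of -0.07, 0.06 and 0.01. Counting noise lowers such values, so they cannot exclude pairing. The numbers were not treated as pairs in the main fit. Among the 57 members, however, the deviations of the libraries numbered 2 went together across genes (Pearson's r 0.72, Spearman's rho 0.41, compared with 0.10 and 0.08 over the 12145 tested genes that averaged 5 CPM or more). The fit was tested on simulated data in which 200 of 16808 genes moved up or down by 1 log2 unit. Those 200 were drawn from genes averaging over 20 counts. The fit called 96% of those and 0.126% of the 16608 others. Far more genes were called in the real data, and most members moved by less, so these rates may not carry over.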

Additional observations from a re-analysis of the deposited data

How the results depend on the processing

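Across 18 settings, 16 planned and 2 added after the data were seen, the 57 mitosis genes gave 1026 values, of which 1020 kept their direction and their side of the threshold and 0 reversed. The other 6, Bub3, Mad2l1, Cdc20, Pttg1, Ckap2 and Cit, no longer passed with a minimum fold change of 1.2. The median log2 fold change ran from 0.64 to 0.70 over all settings. Over all tested genes, a minimum fold change of 1.2 left 883 genes called higher and 1340 lower. Scaling by library totals alone gave 4207 higher and 3212 lower, compared with 3506 and 3725 with TMM factors. Leaving out each library in turn changed no call among the 57. With a replicate block, 57 mitosis genes, and 3488 higher and 3694 lower genes over all, were called; the labels do not pair the libraries by number. The precision is limited by 3 libraries per genotype, which the study calls independently derived without naming separate animals, litters or cultures. It is also limited by the mix of cell types, which bulk RNA does not resolve.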
